A study of Mus musculus with 9 samples.

Results

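The muscle acetylcholine receptor and the proteins that gather it at the synapse were described as 10 genes, chosen by name from a table of 25655 mouse genes. They were the 5 muscle receptor subunits *Chrna1*, *Chrnb1*, *Chrnd*, *Chrng* and *Chrne*, and the 5 genes *Agrn*, *Lrp4*, *Musk*, *Dok7* and *Rapsn* of the agrin pathway. RNA had been sequenced from 3 libraries in each of 3 groups of muscle stem cells (MuSCs, the resident stem cells of skeletal muscle). QSCs were MuSCs taken straight from leg muscle of male Pax7-YFP mice of 15 to 16 weeks, homozygous for the *Pax7* reporter allele (Pax7 YFP/YFP), and never entered culture. The MyoD-tdTomato low and the MyoD-tdTomato high populations were MuSCs of MyoD-KI mice, in which tdTomato reports on the *MyoD* locus. The paper describes the donors of these cultures as heterozygous (MyoD KI/+), while the sample labels give no zygosity. The Methods give an age of 10 to 16 weeks and both sexes for such cultures. These cells were grown for 5 days in growth medium and then parted by flow cytometry on tdTomato, so the gate is a range of reporter signal and *Myod1* itself was used, through the reporter, to define both populations. Genotype, sex, stated age range, way of isolation and culture all differ between QSCs and the cultured cells and cannot be told apart. The Methods call the libraries technical replicates, so p-values measure only the spread between libraries.

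At the neuromuscular junction, agrin released by the motor nerve binds LRP4, which switches on the receptor tyrosine kinase MuSK in the muscle membrane. The adaptor DOK7 then strengthens the MuSK signal, and rapsyn anchors acetylcholine receptors into dense clusters opposite the nerve ending. The fetal receptor is built from α, β, δ and γ subunits, and after birth ε takes the place of γ at innervated synapses. In cultured muscle cells the receptor genes are known to rise during differentiation, through E boxes (CANNTG) in their promoters that bind MyoD and myogenin together with E proteins.

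Promoter sequences are shown because the receptor genes are textbook examples of E box promoters. A RefSeq entry (GRCm38.p6) was matched to 7 of the 10 genes, that is to all but *Chrnd*, *Rapsn* and *Lrp4*. All of the matched genes but *Dok7* are printed. Each line gives the 150 bases before the RefSeq start, 5′ to 3′, with E boxes that lie wholly inside in capitals. The windows are chr2:73580339-73580488 on the minus strand for *Chrna1*, chr1:87205661-87205810 on the plus strand for *Chrng*, chr11:69795938-69796087 on the minus strand for *Chrnb1*, chr11:70619195-70619344 on the minus strand for *Chrne*, chr4:58285812-58285961 on the plus strand for *Musk* and chr4:156197489-156197638 on the minus strand for the first of 2 entries of *Agrn*.

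*Chrna1*: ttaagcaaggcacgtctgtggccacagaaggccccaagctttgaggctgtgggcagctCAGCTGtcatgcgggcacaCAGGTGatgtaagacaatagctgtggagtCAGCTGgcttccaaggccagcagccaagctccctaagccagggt
*Chrng*: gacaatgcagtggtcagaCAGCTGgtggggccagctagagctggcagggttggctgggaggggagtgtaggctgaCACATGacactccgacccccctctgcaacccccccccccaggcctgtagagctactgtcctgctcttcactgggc
*Chrnb1*: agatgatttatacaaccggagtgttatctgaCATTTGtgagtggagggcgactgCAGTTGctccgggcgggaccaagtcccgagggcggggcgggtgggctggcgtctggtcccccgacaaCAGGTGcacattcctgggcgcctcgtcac
*Chrne*: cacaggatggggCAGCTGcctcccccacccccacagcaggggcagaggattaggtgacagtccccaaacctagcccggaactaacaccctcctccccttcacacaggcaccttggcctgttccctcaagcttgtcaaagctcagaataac
*Musk*: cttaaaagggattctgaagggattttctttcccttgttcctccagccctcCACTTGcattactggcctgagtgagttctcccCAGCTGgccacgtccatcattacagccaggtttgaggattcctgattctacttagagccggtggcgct
*Agrn*: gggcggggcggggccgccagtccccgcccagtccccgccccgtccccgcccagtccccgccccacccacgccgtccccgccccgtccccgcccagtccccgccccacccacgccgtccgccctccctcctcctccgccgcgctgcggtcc

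Within 250 bases before the start, *Chrna1*, *Chrng*, *Musk* and *Chrnb1* each held 3 E boxes, *Chrne* held 1, and the *Agrn* entry shown held 0. The second entry of *Agrn* held 1 (CAACTG). *Dok7*, whose sequence is not printed, held 1 (CAGATG) in its first entry and 0 in its second. The E box is the same on both strands once its middle bases are left free. Of 32851 promoters of this length, 66.2% held at least 1 E box and 12.2% held 3 or more. The sequence CAGCTG, one form of the E box, occurred in 13% of them, and here it was found 2 times in *Chrna1* (92 and 44 bases before the start), 2 times in *Chrng* (155 and 132 bases before), and 1 time each in *Musk* (68 bases) and *Chrne* (138 bases). The box of *Chrng* at 155 bases crosses the edge of the printed window and is not capitalised there. *Chrnb1*, *Dok7* and *Agrn* had no CAGCTG. The boxes of *Chrnb1* read CATTTG (119 bases before the start), CAGTTG (96 bases before) and CAGGTG (29 bases before). CCGGAA, searched on both strands as the core of the N box that Ets factors bind in synaptic genes, was found in 12% of promoters and, among these genes, in *Chrne* only, 1 time. These are matches of letters and say nothing of binding in these cells.

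Libraries held 7514633 to 18077031 counts in QSCs and 24471782 to 26782872 counts in the cultured cells. The QSC library of replicate 2 was the shallowest and stood apart: 1602 chemosensory receptor genes, which are active chiefly in sensory neurons, summed to 3001 CPM (counts scaled to the size of the library) there, to 562 and 771 CPM in the other QSC libraries and to between 20.4 and 29.6 CPM in the cultured ones. *Pax7*, the defining factor of MuSCs, averaged 315 CPM in QSCs, 147 CPM in MyoD-tdTomato low and 80.7 CPM in MyoD-tdTomato high cells. *Calcr*, a receptor gene of quiescent MuSCs, averaged 184 CPM in QSCs and 0.34 and 0.0989 CPM in the low and high cells. Both belong to a list of 6 stem cell markers, which summed to 1735 to 2250 CPM in QSCs, 1464 to 1527 CPM in low and 2243 to 2310 CPM in high cells. In that list *Vcam1* (345, 64.9 and 44.3 CPM) was also highest in QSCs, while *Itga7* (355, 429 and 579 CPM) was highest in high cells. *Myod1* averaged 744, 710 and 1463 CPM and *Myf5* 131, 145 and 100 CPM. The summed level of 10 endothelial markers was 435 to 874 CPM in QSCs, 23.4 to 35.3 CPM in low cells and 5.66 to 6.57 CPM in high cells, and that of 6 Schwann cell markers 111 to 192, 12.4 to 26.5 and 6.41 to 7.38 CPM. Fibroblast markers, 7 genes, summed to 2722 to 3325 CPM in QSCs, 907 to 1386 CPM in low cells and 772 to 902 CPM in high cells, with *Dcn* (decorin) at 359, 0.503 and 0.157 CPM and *Dpt* (dermatopontin) at 373, 0.163 and 0.0233 CPM on average. The sums of 6 myeloid markers were 69.1 to 106, 23.0 to 39.3 and 3.79 to 9.15 CPM. Those of 6 pericyte and smooth muscle markers, at 696 to 758, 424 to 920 and 1261 to 2369 CPM, were highest in high cells. Of that list, *Acta2* was lower in low than in high cells (log2 fold change -1.76) and *Pdgfrb* higher (2.30). In fits without 1 library their edgeR adjusted p rose to as much as 0.0396 and 0.0321, above the limit of 0.01 used here. The sums of 8 motor neuron markers overlapped between all groups (4.02 to 27.4, 12.7 to 23.5 and 12.3 to 18.1 CPM). *Tubb3* made up most of that sum in cultured cells (11.5 to 22.3 CPM, against 0.341 to 6.71 CPM in QSCs). The other motor neuron markers averaged highest in QSCs, each with its top value in replicate 2, among them *Nefm* (2.31, 0.690 and 0.270 CPM). The part of these cell types in the differences between groups was not tested. The summed level of 7 markers of embryonic and newly formed myofibres was 233 to 340 CPM in QSCs, 471 to 1750 CPM in low cells and 6292 to 13109 CPM in high cells. Genes with at least 1 count in every library were tested, 12614 in all, and a gene was called where the Benjamini-Hochberg adjusted p of edgeR was under 0.01 and the fold change over 1.5. In bulk RNA, fewer cells of a type and less RNA per cell cannot be told apart, which holds for every difference given here.

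Levels were compared between genes in TPM, which is scaled by transcript length. *Chrnb1*, the β subunit, led in QSCs with a mean of 269 TPM, followed by *Rapsn* (rapsyn) at 97.1 TPM, *Chrna1* (α) at 53.3 TPM and *Musk* at 46.4 TPM, and the libraries of *Chrna1* and *Musk* overlapped. *Agrn* stood at 11.4 TPM there, followed by *Chrng* (γ) at 6.72, *Dok7* at 4.52, *Chrnd* (δ) at 2.93 and *Lrp4* at 2.75 TPM. In this order each overlapped the next, except that *Dok7* lay above *Chrnd* in every library. In MyoD-tdTomato low cells the order began with *Chrna1* at 536 TPM, *Rapsn* at 192 TPM and *Chrnb1* at 142 TPM, none of which overlapped. *Chrng*, *Dok7*, *Chrnd* and *Musk* followed at 82.2, 64.0, 56.1 and 53.0 TPM, each overlapping the next, and *Lrp4* (26.6 TPM) and *Agrn* (18.4 TPM), which overlapped, were lowest of the tested genes. In MyoD-tdTomato high cells *Chrna1* reached 1052 TPM and *Chrng* 325 TPM, ahead of *Rapsn* (256 TPM), *Chrnb1* (221 TPM), *Chrnd* (171 TPM), *Dok7* (154 TPM), *Musk* (107 TPM), *Lrp4* (46.9 TPM) and *Agrn* (11.3 TPM). There the libraries of *Chrng* overlapped those of *Rapsn*, *Rapsn* those of *Chrnb1*, and *Chrnd* those of *Dok7*.

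**Figure D1:**
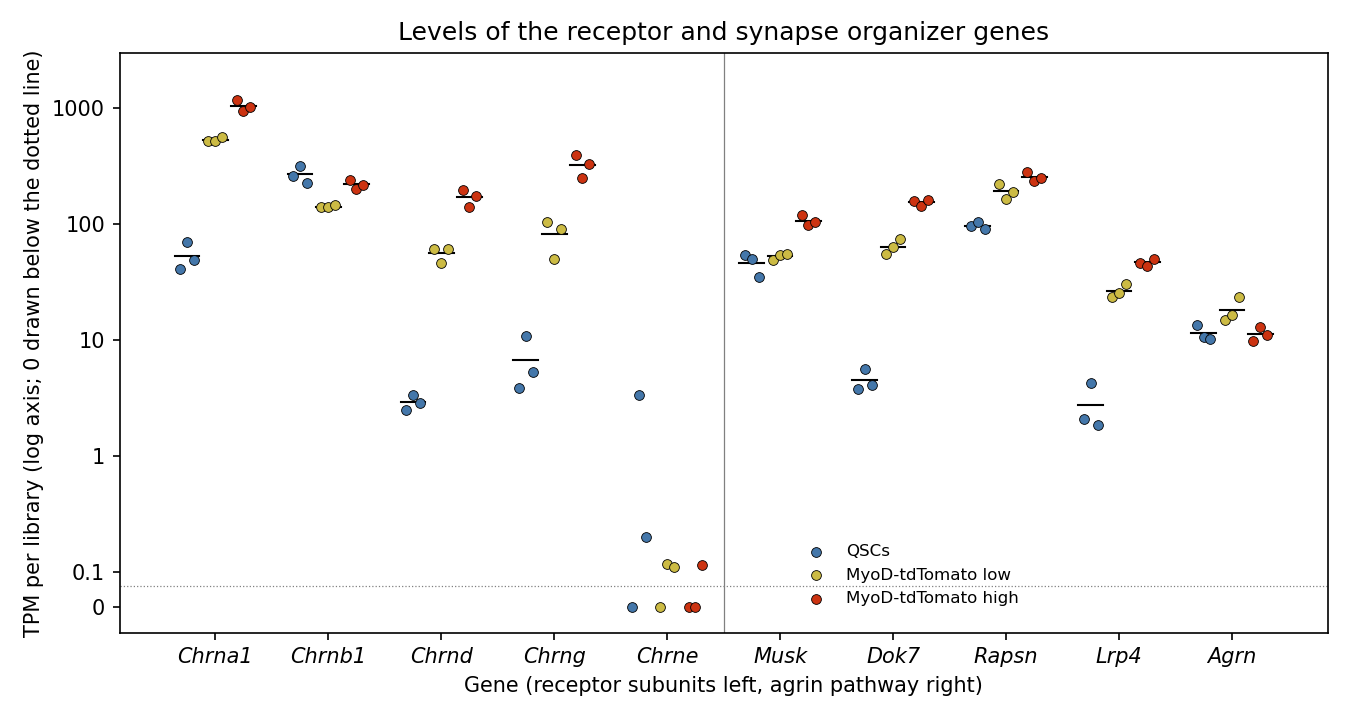
TPM of each gene in each library on a log axis, with values of 0 drawn below the dotted line; points are libraries and bars are group means (none for *Chrne*, which is listed at 0 in some libraries). *Chrna1*, *Chrnd*, *Chrng*, *Dok7*, *Rapsn* and *Lrp4* step up from QSCs to low to high cells with no overlap in TPM, while the QSC libraries of *Chrnb1* reach 318 TPM and *Agrn* stays between 9.81 and 23.7 TPM throughout. In CPM, not drawn here, the QSC and low libraries of *Rapsn* overlap.

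*Chrna1* (ENSMUSG00000027107, GRCm39 chr2:73393559-73410682) encodes the α subunit, which carries the main part of the acetylcholine binding site. It measured 41.0, 70.0 and 48.9 TPM in QSCs, 525, 519 and 564 TPM in MyoD-tdTomato low cells and 1190, 943 and 1023 TPM in MyoD-tdTomato high cells. The 3 groups followed each other with no overlap. Against high cells, *Chrna1* was lower in low cells by a log2 fold change of -1.11 (SE 0.17, edgeR adjusted p = 0.00252) and in QSCs by one of -3.66 (SE 0.18, adjusted p = 6.98e-08). It was also lower in QSCs than in low cells (-2.55, SE 0.18, adjusted p = 6.28e-07).

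*Chrnd* and *Chrng* are neighbours on the same strand of chromosome 1 (ENSMUSG00000026251, chr1:87118329-87127792, and ENSMUSG00000026253, chr1:87132379-87140416, GRCm39). *Chrnd* measured 2.51, 3.39 and 2.88 TPM in QSCs, 60.7, 46.6 and 61.0 TPM in low cells and 198, 139 and 175 TPM in high cells. *Chrng*, the γ subunit of the fetal receptor, measured 3.90, 10.9 and 5.35 TPM in QSCs, 105, 50.4 and 90.7 TPM in low cells and 398, 248 and 328 TPM in high cells. Neither gene overlapped between any pair of groups, and for both the lowest of the cultured libraries in each population was replicate 2. *Myog*, the gene of myogenin, was lowest in the same libraries, at 134 CPM against 427 and 349 CPM in low cells and at 1540 CPM against 2953 and 2347 CPM in high cells, and its part in the receptor values was not tested. Low cells were below high cells by a log2 fold change of -1.74 for *Chrnd* (SE 0.18, adjusted p = 0.00131) and -2.12 for *Chrng* (SE 0.34, adjusted p = 0.00368). For QSCs against high cells the values were -5.22 (SE 0.22, adjusted p = 2.58e-08) and -5.02 (SE 0.40, adjusted p = 1.74e-06), and for QSCs against low cells -3.48 and -2.90 (adjusted p = 2.56e-07 and 6e-05). Without the QSC library of replicate 2, *Chrng* differed more, by -5.38 from high cells and by -3.26 from low cells.

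*Chrnb1* (ENSMUSG00000041189, GRCm39 chr11:69674862-69686769), whose product completes the receptor ring, followed another course. It measured 262, 318 and 226 TPM in QSCs, 141, 140 and 145 TPM in low cells and 242, 203 and 218 TPM in high cells. Low cells lay below both other groups, and QSCs overlapped high cells on this scale. In CPM, which set the tests, QSCs (366 to 406) lay above high cells (179 to 227), and high above low cells (113 to 122). *Chrnb1* was thus lower in low than in high cells (-0.78 on the log2 scale, SE 0.11, adjusted p = 0.00177), and higher in QSCs than in low cells (1.70, SE 0.11, adjusted p = 3.58e-07) and than in high cells (0.93, SE 0.11, adjusted p = 2.35e-05). The difference between QSCs and high cells was not called on log2(TPM + 1) with limma (0.27, adjusted p = 0.0802), a scale on which the median of all tested genes lay at -0.59 in this comparison against 0.02 in the counts, so that relative to all genes *Chrnb1* was higher in QSCs on both.

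*Chrne* (ENSMUSG00000014609, GRCm39 chr11:70505709-70510042), the ε subunit of the adult receptor, was hardly seen. Its counts were 0, 22 and 3 in QSCs, 0, 2 and 2 in low cells, and 0, 0 and 2 in high cells. A single library, the QSC library of replicate 2, held most of them, and that library also held the chemosensory reads given above. In the 4 libraries with 0 counts, 3 counts, the limit that a count of 0 allows, would be 0.112 to 0.166 CPM. *Chrne* overlaps *4930544D05Rik* on the other strand, which had 0 counts in every library. With its zeros it was left out of the tests, and with no filter on low counts its adjusted p was 1 for low against high, 0.0772 for QSCs against high and 0.108 for QSCs against low cells.

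The composition of receptor transcripts differed between the groups. Of the summed TPM of the 5 subunits, *Chrnb1* made up 78.4 to 84.7% in QSCs, 16.9 to 18.5% in low cells and 11.9 to 13.2% in high cells. *Chrna1* made up 13.3 to 17.3% in QSCs, 63.1 to 68.7% in low cells and 58.7 to 61.5% in high cells. *Chrng* made up 1.26 to 2.69% in QSCs, 6.68 to 12.7% in low cells and 16.2 to 19.6% in high cells, and *Chrnd* on average 0.887% in QSCs, 6.85% in low cells and 9.63% in high cells. None of these 4 shares overlapped between groups. The sum itself was 283 to 406 TPM in QSCs, 755 to 861 TPM in low cells and 1534 to 2029 TPM in high cells. *Chrna1* per *Chrnb1*, as a ratio of TPM, was 0.198 ± 0.035 (SD, n = 3) in QSCs, 3.77 ± 0.097 in low cells and 4.75 ± 0.14 in high cells. Of *Chrng* and *Chrne* together, *Chrng* held 99.9 ± 0.12% of the TPM in low cells and 99.965% or more in every high library. In QSCs it held 91.0 ± 12.7%, with 76.5% in replicate 2, 96.4% in replicate 3 and no count of *Chrne* at all in replicate 1.

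**Figure D2:**
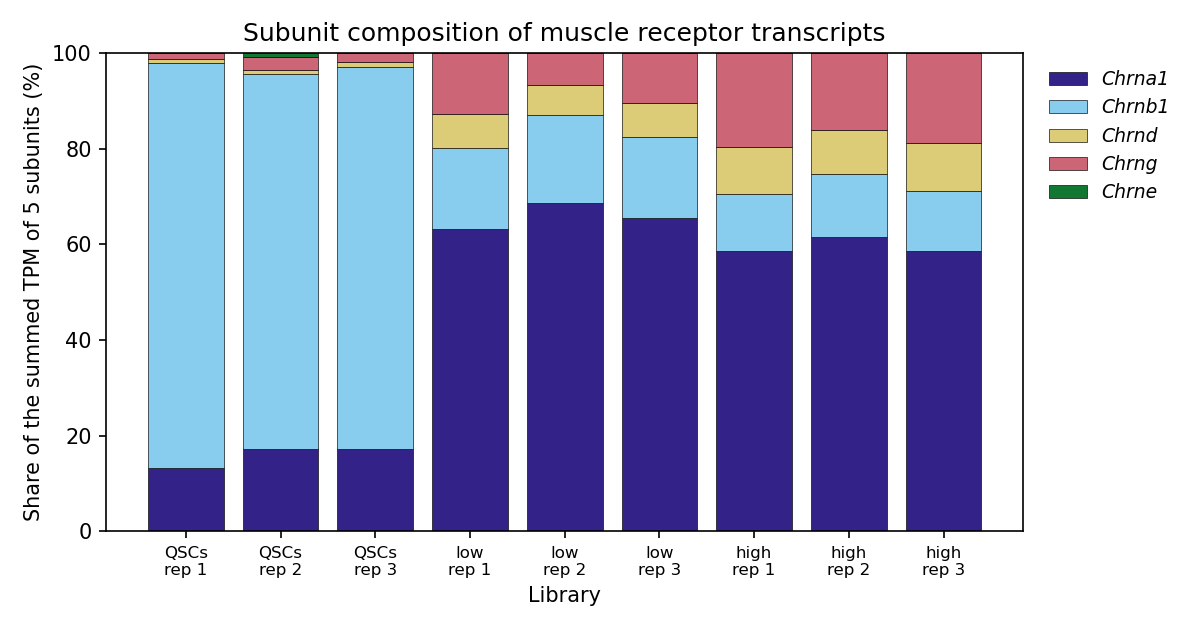
Share of each subunit in the summed TPM of the 5 muscle receptor subunits, as 1 stacked bar per library, in percent. *Chrnb1* fills 78.4 to 84.7% of the QSC bars and *Chrna1* 58.7 to 68.7% of the bars of cultured cells, where *Chrng* and *Chrnd* widen from low to high.

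Among the organizers, *Dok7* (ENSMUSG00000044716, GRCm39 chr5:35214110-35245183), the adaptor that activates MuSK from inside the cell, moved with the α subunit. It measured 3.80, 5.64 and 4.12 TPM in QSCs, 54.8, 63.3 and 74.0 TPM in low cells and 159, 143 and 161 TPM in high cells. No groups overlapped. Its log2 fold change was -1.41 for low against high (SE 0.14, adjusted p = 0.00131), -4.46 for QSCs against high (SE 0.16, adjusted p = 1.15e-08) and -3.05 for QSCs against low cells (SE 0.15, adjusted p = 8.85e-08).

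*Lrp4* (ENSMUSG00000027253, GRCm39 chr2:91287856-91344124), the agrin receptor, measured 2.11, 4.29 and 1.85 TPM in QSCs, 23.5, 25.7 and 30.7 TPM in low cells and 46.2, 44.0 and 50.4 TPM in high cells. The groups were again apart in all 3 pairings. QSCs were lower than high cells (-3.51, SE 0.23, adjusted p = 3.5e-07) and than low cells (-2.55, SE 0.22, adjusted p = 3.11e-06). The difference between low and high cells was -0.95 (SE 0.20) with an adjusted p of 0.0111, just above the threshold of 0.01. It was called without the QSC library of replicate 1 (adjusted p = 0.00984) or 2 (0.00148), and once low and high libraries of one number were treated as pairs in a fit of the 6 cultured libraries (-0.93, adjusted p = 3.3e-07 with the replicate block).

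*Musk* (ENSMUSG00000057280, GRCm39 chr4:58285960-58374303), the kinase at the centre of the pathway, measured 54.5, 49.7 and 35.0 TPM in QSCs, 49.4, 54.6 and 55.2 TPM in low cells and 119, 98.4 and 105 TPM in high cells. High cells stood above both other groups, which overlapped each other in TPM. Low cells were lower than high cells (-1.16, SE 0.13, adjusted p = 0.00131). QSCs differed from high cells by -0.57 (SE 0.13, adjusted p = 0.0028), a fold change below the 1.5 needed for a call, and it was called without the QSC library of replicate 1 (-0.69, adjusted p = 0.00106) or the high library of replicate 2 (-0.66, adjusted p = 0.00276) or 3 (-0.59, adjusted p = 0.00877). Against low cells *Musk* was called higher in QSCs in CPM (0.59, SE 0.13, adjusted p = 0.00238), with 93.0 to 122 CPM in QSCs and 67.9 to 71.4 CPM in low cells. That direction depended on the scale, as log2(TPM + 1) gave -0.21 (adjusted p = 0.261), and the call was lost with the replicate block (0.58, adjusted p = 0.00293, fold change below 1.5). That block also ties QSCs to cultured libraries of the same number, a pairing not seen in the libraries. The call was also lost without the QSC library of replicate 1 (0.47, adjusted p = 0.00818), the low library of replicate 1 or 3 (adjusted p = 0.0112 and 0.0103) or any of the 3 high libraries (0.57 to 0.58, fold change below 1.5). *Musk* per *Lrp4*, as a ratio of TPM, was 18.8 ± 7.13 (SD, n = 3) in QSCs, 2.01 ± 0.18 in low cells and 2.30 ± 0.25 in high cells.

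*Rapsn* (ENSMUSG00000002104, GRCm39 chr2:90865965-90876074), which encodes the scaffold rapsyn, measured 97.0, 104 and 90.4 TPM in QSCs, 222, 166 and 188 TPM in low cells and 282, 236 and 250 TPM in high cells. In TPM the groups did not overlap, while in CPM QSCs (99.9 to 114) overlapped low cells (102 to 145). QSCs were lower than high cells (-0.74, SE 0.15, adjusted p = 0.00103). Low against high cells gave -0.55 (SE 0.14, adjusted p = 0.0327) and QSCs against low cells -0.19 (95% confidence interval -0.51 to 0.13, adjusted p = 0.261), and neither was called.

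*Agrn* (ENSMUSG00000041936, GRCm39 chr4:156249747-156281945) encodes agrin, which muscle cells also make in a form that clusters receptors poorly. It measured 13.4, 10.6 and 10.3 TPM in QSCs, 14.8, 16.6 and 23.7 TPM in low cells and 9.81, 13.0 and 11.1 TPM in high cells. Low cells lay above high cells in TPM, QSCs overlapped high cells, and the gene-level values do not separate the nerve and muscle forms of agrin. Low against high cells gave 0.57 (SE 0.19, adjusted p = 0.0831), not called, the only positive value among the 9 tested genes in that comparison. *Agrn* was called higher in QSCs than in high cells (0.69, SE 0.19, adjusted p = 0.00765). That call was lost with the replicate block (0.68, adjusted p = 0.0116), without any of the 3 high libraries (adjusted p = 0.0128 to 0.0347), without the QSC libraries of replicate 1 (0.58, adjusted p = 0.031) or 3 (0.66, adjusted p = 0.0236), without the low library of replicate 2 (0.68, adjusted p = 0.011), and on log2(TPM + 1), where the difference was 0.02. Here too the block ties QSCs to cultured libraries by a number that was not seen to pair them.

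Counted over the 9 tested genes, MyoD-tdTomato low cells had 6 called lower than high cells and 0 called higher, where 5.11% of all tested genes were called in either direction, 3.88% lower and 1.23% higher. *Agrn*, with the only positive value, had an unadjusted edgeR p of 0.0119. DESeq2 called 7 of the 9 genes lower and 0 higher, where it called 9.56% of all tested genes (752 lower and 454 higher). The 6 were all 4 tested receptor subunits, *Musk* and *Dok7*. The CPM of the 2 populations did not overlap for any of the 9 genes, as was the case for 46.1% of all tested genes. Without the low library of replicate 3, the high library of replicate 1 or the high library of replicate 3, 3 of the 9 genes were called (*Chrnd*, *Musk* and *Dok7*), as *Chrna1*, *Chrnb1* and *Chrng* moved to adjusted p between 0.0102 and 0.0189. All 645 calls among all genes fell to between 111 and 134 in those fits. *Chrna1* was also not called without the low library of replicate 1 or 2 (adjusted p = 0.0109 and 0.0128), nor *Chrng* without the low library of replicate 2 (0.0104).

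For QSCs against high cells, 6 of the 9 genes were called lower and 2 higher (*Chrnb1* and *Agrn*), where 51.1% of all tested genes were called, 24.6% lower and 26.4% higher. For QSCs against low cells 5 were lower (*Chrna1*, *Chrnd*, *Chrng*, *Dok7* and *Lrp4*) and 2 higher (*Chrnb1* and *Musk*), where 49.1% were called, 22.6% lower and 26.5% higher. CPM did not overlap for 9 of 9 genes between QSCs and high cells (68.5% of all tested genes) and for 7 of 9 between QSCs and low cells (67.1%). About as many of the tested genes were called here as not, so that a call alone separates these genes little from others. The 3 comparisons share libraries in pairs and are not independent. Without the QSC library of replicate 2 the counts of members called were 8 and 7, as with it. On log2(TPM + 1) the split of all calls moved, with 1799 of 7549 genes higher in QSCs than in high cells against 3333 of 6440 in the counts, and 1579 of 7592 higher than in low cells against 3343 of 6191.

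**Figure D3:**
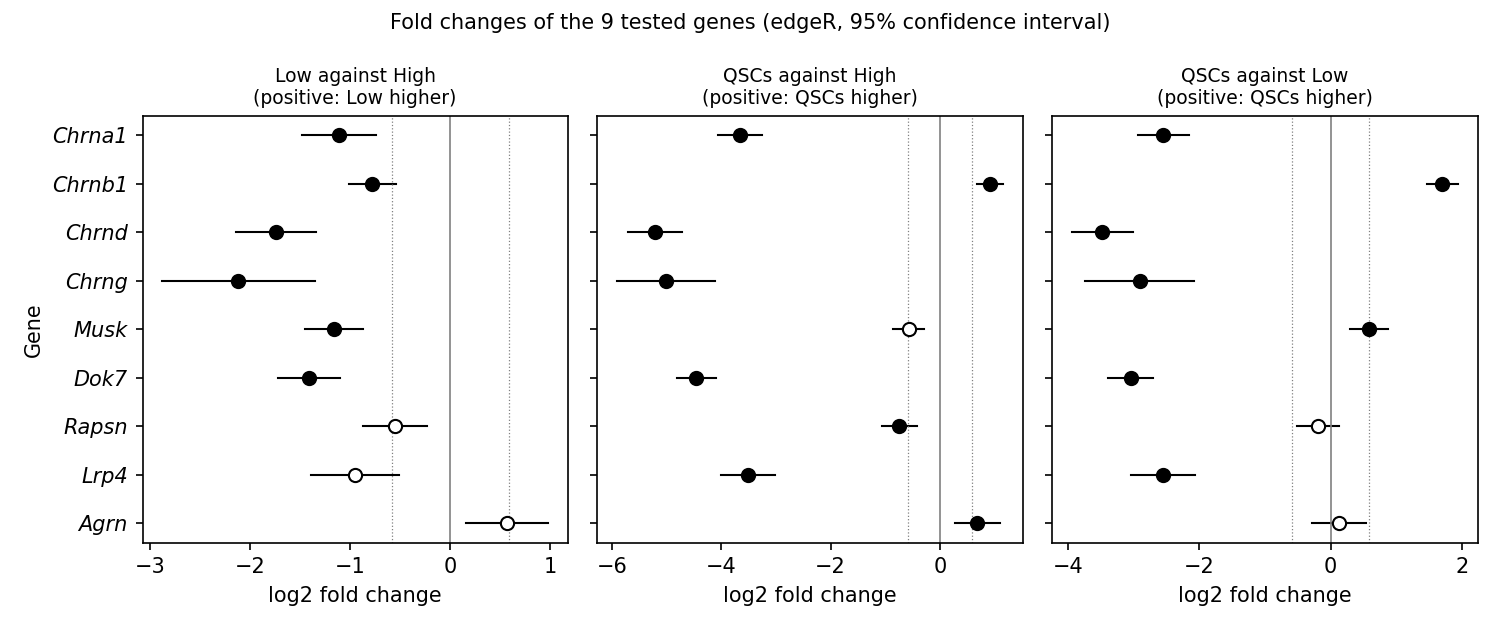
edgeR log2 fold change of the 9 tested genes with 95% confidence intervals, in 1 panel per comparison; filled points are called, open points are not, and dotted lines mark a fold change of 1.5. In low against high cells 8 of the 9 points lie left of 0, and in both comparisons of QSCs *Chrnb1* lies to the right while *Chrnd* and *Chrng* lie between -2.90 and -5.22.

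Across the 9 libraries, the log2 CPM of *Chrna1*, *Chrnd*, *Chrng*, *Dok7* and *Lrp4* ran close together, with Pearson r between 0.971 and 0.997 for every pair. *Rapsn* followed *Chrna1* less tightly (r = 0.798), *Musk* hardly did (r = 0.27), and *Chrnb1* and *Agrn* ran against it (r = -0.70 and -0.72). The genes whose profile was most like *Chrna1*, among 9399 tested genes of at least 10 CPM, were *Inppl1* (r = 0.999), *Optn*, *Hes6*, *Dok7* and *Jmjd4*, and those most like *Musk* were *Mef2d* (r = 0.973), *Sptbn1*, *Qk*, *Herc3* and *Prdm2*. *Mef2d* encodes a MADS box factor of muscle. These values are descriptions over 9 libraries that fall into 3 groups and share group means, depth and culture.

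Of 19 tested genes downstream of MuSK, 2 were lower in low than in high cells and 17 were not called, where 3.88% of all tested genes were lower, with a list median of -0.23 on the log2 scale against -0.00084 for all tested genes. The 2 were *Macf1*, a linker of microtubules and actin (353 against 872 CPM, -1.30, adjusted p = 0.00139), and *Fyn*, a Src family kinase (47.2 against 157 CPM, -1.74, adjusted p = 0.00131). QSCs had 8 lower than high cells and 11 not called, among the former *Pak1*, a kinase downstream of Rac (41.0 against 158 CPM, -1.95, adjusted p = 3.87e-07), and *Ctnnb1*, which encodes β-catenin (516 against 1133 CPM, -1.14, adjusted p = 5.93e-06). Against low cells 7 were lower in QSCs, including *Abl1* (-1.06, adjusted p = 4.4e-05), and *Cdc42* was higher (0.60, adjusted p = 0.0015). The list medians there were -0.42 and -0.14, against 0.02 and 0.07 for all tested genes. Of all tested genes 51.1% were called between QSCs and high cells, 49.1% between QSCs and low cells and 5.11% between low and high cells. These shares apply to every list below.

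Of 16 tested genes of the synaptic basal lamina and acetylcholinesterase, 1 was higher in low cells, *Lama4* of the laminin α chains (5.23 against 0.442 CPM, 3.55, adjusted p = 0.00385), and 1 lower, *Col13a1*, a transmembrane collagen of the junction (0.708 against 2.96 CPM, -2.05, adjusted p = 0.00745). *Ache*, which encodes the enzyme that breaks down acetylcholine, averaged 2.50 CPM in low and 8.64 CPM in high cells (-1.79, adjusted p = 0.0181), and *Colq*, its collagen tail, was at 0.233 and 1.12 CPM (adjusted p = 0.0674), and neither was called. QSCs had 6 of these genes higher and 3 lower than high cells, and 5 higher and 5 lower than low cells. Of all tested genes 51.1% and 49.1% were called there. *Lama2*, the laminin chain of the muscle basal lamina, was higher in QSCs than in high cells (276 against 100 CPM, 1.46, adjusted p = 0.000248) and *Lamb1* lower (50.9 against 183 CPM, -1.86, adjusted p = 1.24e-05). The endothelial, fibroblast, Schwann and myeloid markers given above also summed highest in QSCs. In low against high cells, where *Lama4* was called higher, 6 of 9 tested endothelial markers were higher too (list median 2.21), as were 2 of 5 myeloid markers and *Sox10*, 1 of 3 Schwann cell markers (5.70, adjusted p = 0.00419, not called in 5 of the 9 fits without 1 library). Each of these endothelial and myeloid calls was also lost in at least 1 of those fits, with edgeR adjusted p up to 0.0454. The part of these cell types in the values of this list was not tested.

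Of 11 genes of the utrophin and dystroglycan scaffold, 2 were lower in low than in high cells and 9 were not called. *Dtna*, α-dystrobrevin of the postsynaptic membrane, was at 35.9 against 160 CPM (-2.16, adjusted p = 0.00248) and *Sntb1*, β1-syntrophin, at 22.3 against 146 CPM (-2.71, adjusted p = 0.00152). *Utrn* itself was at 135 CPM in low and 166 CPM in high cells (-0.30, adjusted p = 0.157). In QSCs 4 were higher and 4 lower than in high cells, and 4 higher and 3 lower than in low cells (51.1% and 49.1% of all tested genes called). *Dag1*, the dystroglycan gene, was higher in QSCs than in high (879 against 422 CPM, 1.06, adjusted p = 0.000811) and low cells (263 CPM, 1.74, adjusted p = 2.97e-05), and *Plec* (plectin) was lower in both (-1.92 and -1.81, adjusted p = 1.55e-07 and 2.49e-07).

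*Erbb3*, a neuregulin receptor, was the 1 gene called of 7 tested neuregulin receptor and Ets factor genes between low and high cells (27.2 against 111 CPM, -2.03, adjusted p = 0.00781). Against high cells, QSCs showed 2 of this list higher and 3 lower, and against low cells 1 higher and 2 lower (51.1% and 49.1% of all tested genes called). *Erbb2* was lower in QSCs in both comparisons (-1.75 and -1.35, adjusted p = 6.83e-05 and 0.000437), and *Gabpb1*, a subunit of the N box factor GABP, was higher in both (1.79 and 1.66, adjusted p = 4.98e-06 and 9.47e-06).

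Of 10 E box factors and their Id inhibitors, *Myog* and *Myod1* were lower in low than in high cells and 8 were not called. *Myog* was at 303 against 2280 CPM (-2.91, adjusted p = 0.00172) and *Myod1*, which the gate had used, at 710 against 1463 CPM (-1.04, adjusted p = 0.00308). The Id genes, whose products hold E proteins away from DNA, were not called there, with *Id3* at 676 against 534 CPM (0.34, adjusted p = 0.0831) and *Id1* at 276 CPM in both. QSCs held *Myod1* at 744 CPM, not called against low cells (0.07, adjusted p = 0.72), while *Myog* was lower in QSCs (73.3 CPM) than in low cells (-2.05, adjusted p = 0.000801). *Id1* was also lower in QSCs than in both cultured populations (57.2 CPM, -2.27 in each, adjusted p = 1.16e-06 and 1.31e-06). The list had 6 lower and 2 higher in QSCs than in high cells, and 4 lower and 1 higher than in low cells. Among all tested genes 51.1% and 49.1% were called.

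A list of repressors and of genes that rise in denervated muscle had 3 of 8 genes lower in low than in high cells and 5 not called, with a median of -1.36. Among them were *Ncam1* (419 against 923 CPM, -1.14, adjusted p = 0.00149) and *Gadd45a* (56.1 against 231 CPM, -2.04, adjusted p = 0.00152). QSCs had 3 higher and 3 lower than high cells and 5 higher and 2 lower than low cells (51.1% and 49.1% of all tested genes called). *Gadd45a* was higher in QSCs than in either cultured population (511 CPM, 1.14 and 3.19, adjusted p = 0.00252 and 3.41e-06), and so was *Runx1* (419 CPM, 1.18 and 1.82, adjusted p = 0.000155 and 8.46e-06). *Ncam1* was lower in QSCs than in both (181 CPM, -2.35 and -1.21, adjusted p = 3.15e-07 and 3.28e-05).

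Markers of fibre formation moved beside the receptor genes in culture. All 7 genes of embryonic and newly formed myofibres were called lower in low than in high cells, with a median of -3.01, among them *Myh3*, the embryonic myosin heavy chain (352 against 3607 CPM, -3.36, adjusted p = 0.00353), and *Actc1* (207 against 1996 CPM, -3.27, adjusted p = 0.00257). Of 15 markers of mature myofibres 8 were lower and 7 were not called, with sums of 1160 to 2938 CPM in low and 8001 to 15879 CPM in high cells, and none of the 15 was at 0 throughout a group. In QSCs these markers summed to 673 to 1636 CPM, and 2 of them were higher and 9 lower than in high cells (51.1% of all tested genes called). Among the 9 were *Acta1* (252 CPM in QSCs against 4452 CPM in high cells) and *Myh1* (112 against 1851 CPM). Against low cells 4 were higher in QSCs and 1 lower. The 1 lower was *Eno3*, at 77.9 CPM in QSCs, 538 CPM in low and 888 CPM in high cells. *Myh4*, a myosin heavy chain of fast fibres, was at 119 CPM in QSCs, 0.739 CPM in low and 5.99 CPM in high cells, and *Pvalb* (parvalbumin) at 36.7, 0.138 and 1.40 CPM, both higher in QSCs than in low (7.32 and 7.98, adjusted p = 1.9e-05 and 1.31e-06) and high cells (4.31 and 4.72, adjusted p = 0.000206 and 1.05e-05). Without the low library of replicate 1, *Myh4* differed from low cells by 8.26. *Ckm*, the muscle creatine kinase, was at 94.4 CPM in QSCs and 14.3 CPM in low cells (2.72, adjusted p = 0.00105), a difference of 3.33 without that low library. In high cells *Ckm* was at 132 CPM. *Chrnb1* and *Musk* were also higher in QSCs than in low cells in CPM, and the part of mature fibre transcripts in their values was not tested. In low against high cells, the medians of the 9 tested receptor and organizer genes were less negative than that of the embryonic markers. They were -1.43 for the 4 subunits and -0.95 for the other 5. The part of cells that had begun to form fibres in the receptor values was not tested. Of the genes named from these lists, *Macf1*, *Fyn*, *Sntb1* and *Ncam1* were called between low and high cells in every fit without 1 library. *Lama4*, *Col13a1*, *Dtna*, *Erbb3*, *Myog*, *Myod1*, *Gadd45a*, *Myh3*, *Actc1*, *Acta2* and *Pdgfrb* were each not called in at least 1 of these fits, with adjusted p of 0.0104 to 0.0425, and *Col13a1* was not called without any one of the 6 cultured libraries. In QSCs against high cells *Gadd45a* was not called without the high library of replicate 2 or 3 (adjusted p = 0.0136 and 0.0125), and in QSCs against low cells *Cdc42* was not called without the QSC library of replicate 1 or 3 or the low or high library of replicate 1 (0.51 to 0.58, fold change below 1.5). The list memberships overlap at *Myog*, which is also among the E box factors.

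**Figure D4:**
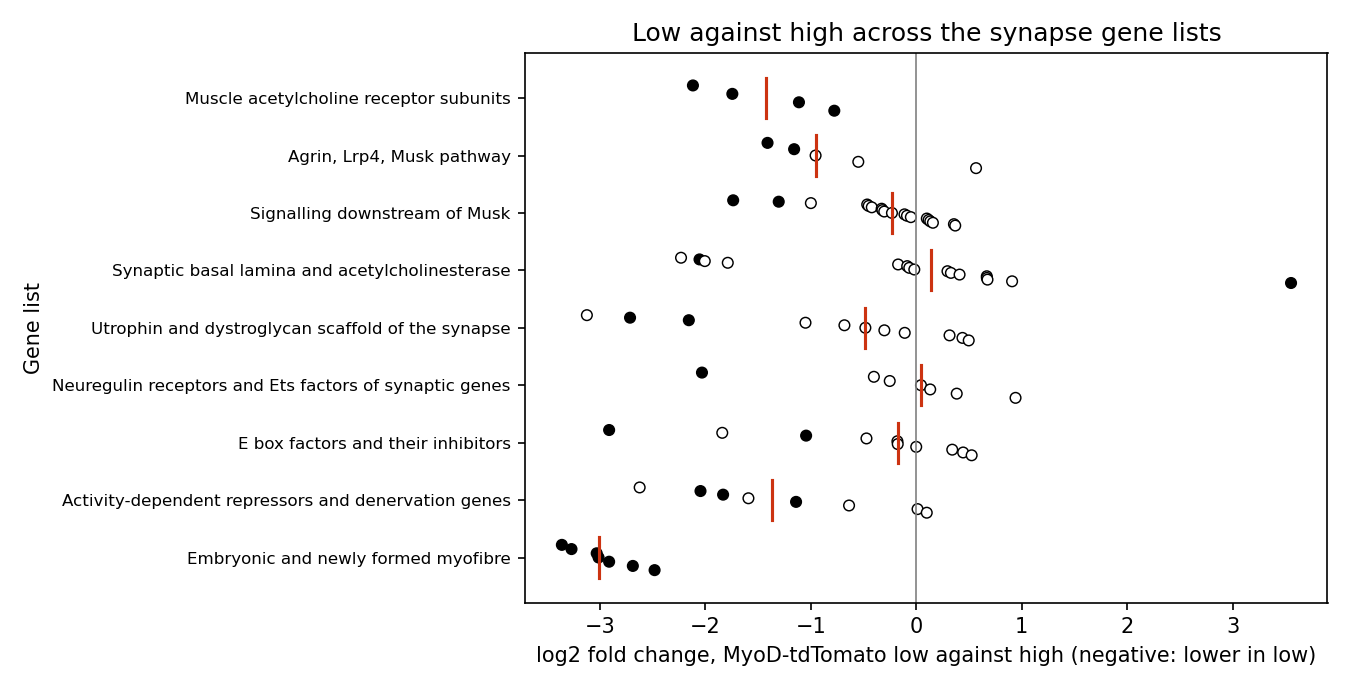
Log2 fold change of every tested gene, MyoD-tdTomato low against high, by gene list; filled points are called, open points are not, and red bars are list medians. The receptor subunits lie between -2.12 and -0.78, the embryonic fibre markers lie further left around a median of -3.01, and 17 of the 19 genes downstream of MuSK are open.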

How the data were processed

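Poly(A) RNA libraries (NEBNext Ultra II) were sequenced as paired-end reads. The authors mapped the reads to GRCm39 in CLC Genomics Workbench at default settings, and the annotation version and strand setting are not given in the sources used here. The deposited table holds raw counts per gene, and TPM that the authors computed in the same program, scaled within each library. Of deposited counts from 1 to 20, between 54.2% and 70.6% per library were even numbers, so the reads of a pair may not have been counted as 1, and limits for a count of 0 cover counting error only and may be too low. Another 18 per-sample columns, counted over all samples, and 24 columns of the authors' own comparisons were not used.

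The counts of all 9 libraries entered 1 robust quasi-likelihood fit of edgeR 4.0.16 (R 4.3.3), with TMM factors and a coefficient for each group, and p was adjusted by Benjamini-Hochberg over 12614 genes in each comparison. The fit was tested on simulated data first. Levels are CPM with TMM factors or TPM. Pearson r used log2 CPM with a prior count of 2. Groups and replicate numbers came from the labels. Deviations from group means correlated at 0.44, 0.43 and 0.18 between low and high libraries of one number. Between low and high libraries of unlike number, r ran from -0.43 to 0.013. Between QSCs and cultured libraries of one number, it ran from -0.046 to 0.013. A pairing by number was thus seen in the cultured libraries only, least in replicate 3, and the main fit does not include it. Alternatives were DESeq2 1.42.0, RLE factors, filterByExpr, no filter, limma 3.58.1 on log2(TPM + 1) and log2(TPM + 0.1), an adjusted p under 0.05 alone, only the groups compared, the replicate block, and leaving out each library, which for the genes of the lists was added after seeing the data. Beside the 10 genes, which were all named, the text names up to 4 called genes with the highest CPM in each list and comparison, some genes whose result a sentence turns on (*Ache*, *Colq*, *Utrn*, *Id3*, *Id1*, *Myod1*, *Myf5*, *Dcn*, *Dpt*), and the 5 genes most like *Chrna1* and *Musk*. The genes and lists were chosen with earlier results of these data known. *Nrg1* was not analysed here. A called gene of these lists is not reported here.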

Additional observations from a re-analysis of the deposited data

How the results depend on the processing

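The count of the 9 tested genes called between MyoD-tdTomato low and high cells was 6, and over fits without 1 library each it ranged from 3 to 7. All other alternatives gave 5 to 8, all of them lower. For QSCs the counts were 8 against high cells (7 to 9 over all alternatives) and 7 against low cells (6 to 7). *Chrnd* and *Dok7* kept their direction and call in all 3 comparisons under every alternative run, as did *Chrna1*, *Chrng* and *Lrp4* in both comparisons of QSCs and *Musk* between low and high cells.

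Directions that turned concerned *Musk* and *Agrn* in QSCs against low cells. *Musk*, at 0.59, turned to -0.21 on log2(TPM + 1) and -0.22 on log2(TPM + 0.1), and *Agrn*, at 0.12, to -0.62 and -0.66 on these scales, to -0.033 with no filter and to -0.012 with only the 2 groups. The ratio of mean levels turned likewise, from 0.875 in TPM to 1.504 in CPM for *Musk* and from 0.623 to 1.09 for *Agrn*. On log2(TPM + 1) the median of all genes moved by -0.61 for QSCs against high and by -0.74 for QSCs against low cells, and by 0.11 for low against high cells, and with no filter by 0.68 and 0.66 for the comparisons of QSCs. Relative to that median, *Musk* in QSCs against low cells stood at 0.45 and *Agrn* at 0.04 on log2(TPM + 1). Calls gained under TPM were *Rapsn* in QSCs against low cells (-0.97, adjusted p = 3.9e-05) and *Musk* in QSCs against high cells (-1.21, adjusted p = 4.68e-05). The median of all tested genes on log2(TPM + 1) itself lay at -0.67 and -0.59 in these 2 comparisons. *Chrnb1* in low against high cells was lost under TPM (-0.63, adjusted p = 0.011).

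The replicate block over all 9 libraries left the 6 calls between low and high cells in place. In the 6 cultured libraries it called 7 of the genes and 2016 of all genes, against 645 in the fit of all libraries, and DESeq2 called 1206 (454 higher, against 155 of the 645), a fit of only the cultured libraries 1026, log2(TPM + 0.1) 415 and fits without 1 library 111 to 881. *Chrng* between low and high cells was lost with no filter (adjusted p = 0.0104) and with only the cultured libraries (0.0128), and *Lrp4* was gained with DESeq2 (0.000385), no filter (0.00681) and only the cultured libraries (0.00139), and without the QSC libraries of replicate 1 (0.00984) or 2 (0.00148). Apart from the calls named here and in the report for *Lrp4*, *Musk* and *Agrn*, the block changed no call. Depth limits *Chrne*, with at most 22 counts in a library, and the QSC library of replicate 2, with 7514633 counts in all.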

Other observations

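Receptor subunits of the neuronal type, which form nicotinic receptors in neurons, were nearly silent in cultured cells and were read at low levels in QSCs. The 11 genes summed to 17.3 to 66.2 CPM in QSCs, 1.99 to 3.03 CPM in MyoD-tdTomato low cells and 2.67 to 3.56 CPM in MyoD-tdTomato high cells. Of the 4 tested, *Chrnb2* was higher in QSCs than in high (8.88 against 0.97 CPM, log2 fold change 3.16, adjusted p = 0.00226) and low cells (3.74, adjusted p = 0.000971). Its level in the 3 QSC libraries was 4.09, 18.1 and 4.48 CPM, so that the mean rested on replicate 2. Without that library the mean was 4.29 CPM and the log2 fold changes 2.13 (adjusted p = 0.00493) and 2.71 (adjusted p = 0.00144), and the call against high cells was lost without the high library of replicate 1 or 3 (adjusted p = 0.0108 and 0.0107). *Chrna4* was higher in QSCs in both comparisons too (3.26 and 5.44, adjusted p = 0.00119 and 9.97e-05), and *Chrna7* against high cells (1.88, adjusted p = 0.0074). The difference of *Chrna4* from low cells was 6.14 without the low library of replicate 1, and the call of *Chrna7* was kept only without the QSC library of replicate 2 or the low library of replicate 1 (adjusted p up to 0.0364 in the other fits without 1 library). Between low and high cells the adjusted p of the 4 genes ran from 0.0909 to 0.981.

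The QSC library of replicate 2 had the highest sum, 66.2 CPM. *Chrnb3* had 71 counts there, 0 in both other QSC libraries and at most 1 in any cultured library, and *Chrna6* had 29 counts there, 0 in the other QSC libraries and 4 in 1 low library. *Chat* and *Slc18a3*, which encode the enzyme that makes acetylcholine and its vesicular transporter in motor neurons, had 25 and 22 counts there. *Chat* had 4 counts in replicate 3, and both genes had 0 in the remaining QSC and cultured libraries. *Chrnb2* had 60, 124 and 54 counts in the 3 QSC libraries and *Chrna4* 66, 56 and 41. *Chrna7*, with 103, 15 and 78 counts, and *Ache*, with 153, 22 and 73, were lowest in replicate 2, which was also the shallowest library. The chemosensory genes given in the report were also highest in replicate 2, and their part in these values was not tested.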
